A study of Mus musculus with 9 samples.

Results

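The 6 genes described here are Ly6a, Ly6c1, Ly6c2, Ly6d, Ly6e and Ly6k, members of the Ly6 family of surface proteins. They were chosen by gene symbol and are 6 of the 24459 rows of an RNA-seq table of mouse splenic B cells. Follicular (FO) B cells with high IgD, B cells of the same gate with low IgD (BDL), and marginal zone (MZ) B cells were sorted from naive mice aged 8 to 10 weeks. FO and BDL cells were both gated as B220+IgMintCD21intCD23+CD93-, and MZ cells as B220+IgMhiCD21hiCD23-CD93-. Splenocytes of 5 mice were pooled for each sort, and 3 sorts of each subset gave 3 libraries per subset and 9 in all. Each of 3 dates has 1 library of every subset, which carry the same replicate number and may come from 1 pool of mice. The labels name the strain C57/BL6, whereas the study's account of the sequenced cells names B10.PL and its methods list both strains. No treatment or engineered allele is given for any group. The values are FPKM, fragments scaled to transcript length and to the mapped fragments of the library, so that levels of different genes can be set side by side per length.

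Ly6 proteins are small and rich in cysteines, share a 3-finger fold with the urokinase receptor uPAR (Plaur) and CD59, and most are held in the outer membrane by a glycosylphosphatidylinositol (GPI) anchor. Several are classic surface markers of blood cells in the mouse. Ly6a encodes Sca-1, known from haematopoietic stem cells and activated lymphocytes. Ly6c1 and Ly6c2 encode the near-identical forms of Ly6C, known from monocytes, memory T cells and plasma cells. Ly6d marks commitment of lymphoid progenitors to the B lineage, Ly6e is an interferon-inducible protein present on many cells, and Ly6k is known from the testis. Transcription of several family members, Ly6a, Ly6c1, Ly6c2 and Ly6e among them, is known to respond to interferons.

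All 6 genes lie on chromosome 15 and are annotated as protein-coding. On mouse genome NCBIM37 (mm9), GENCODE M1 places Ly6d (ENSMUSG00000034634.6) at chr15:74592486-74593997, Ly6k (ENSMUSG00000044678.5) at chr15:74627304-74630416, Ly6a (ENSMUSG00000075602.4) at chr15:74825308-74828064, Ly6c1 (ENSMUSG00000079018.3) at chr15:74875447-74879260 and Ly6c2 (ENSMUSG00000022584.8) at chr15:74938590-74942114, all on the minus strand. Ly6e (ENSMUSG00000022587.7) is on the plus strand at chr15:74785481-74790335. The gaps between neighbours among the 6 run from 33.31 kb (Ly6d to Ly6k) to 155.1 kb (Ly6k to Ly6e), and Ly6c1 and Ly6c2 are 59.33 kb apart. The non-coding gene Gm17189, on the plus strand and not in the table, covers the whole of Ly6k. The labels call the libraries not strand specific whereas the study's methods name a stranded kit, so that reads of Gm17189 may not have been told apart from those of Ly6k.

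Ly6c1 and Ly6c2 are the pair whose reads are hardest to keep apart. Their annotated coding sequences, 396 bases each, differ at 9 positions (97.7% identity), and the longest run without a difference is 188 bases. Of the 9 differences 6 fall in coding bases 6 to 65, printed here from the GENCODE M1 transcripts because this stretch holds most of the coding differences, with the differing bases in capitals.
Ly6c1: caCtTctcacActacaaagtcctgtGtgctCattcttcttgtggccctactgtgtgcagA
Ly6c2: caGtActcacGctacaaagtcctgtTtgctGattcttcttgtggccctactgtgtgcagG
Over the whole transcripts, 31.9% of the 50-base windows of Ly6c1 also occur in Ly6c2, and 33.7% of those of Ly6c2 occur in Ly6c1. How the authors' counting treated such reads is not given in the sources used here. The division between Ly6c1 and Ly6c2 is therefore uncertain, and their sum is given beside them. Ly6a shares 4.03% of such windows with its neighbour Ly6i and 0.39% with Ly6c2, and no other pair among the 6 shares any.

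The promoters of these paralogs, the pair with higher values in BDL, were compared as well. RefSeq promoter sequences were at hand for Ly6c1 and Ly6c2, and 1 start of each is printed with the longest run that both share, 20 bases, in capitals. Both are on the minus strand of GRCm38.p6, a later build than that of the gene positions above, at chr15:75048788-75049087 for Ly6c1 and chr15:75111922-75112221 for Ly6c2.
Ly6c1: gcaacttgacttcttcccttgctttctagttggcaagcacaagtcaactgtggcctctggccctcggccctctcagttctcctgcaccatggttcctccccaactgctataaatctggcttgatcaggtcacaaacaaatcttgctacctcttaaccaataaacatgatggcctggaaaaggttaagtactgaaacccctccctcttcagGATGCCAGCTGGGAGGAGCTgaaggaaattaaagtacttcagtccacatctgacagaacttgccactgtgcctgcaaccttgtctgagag
Ly6c2: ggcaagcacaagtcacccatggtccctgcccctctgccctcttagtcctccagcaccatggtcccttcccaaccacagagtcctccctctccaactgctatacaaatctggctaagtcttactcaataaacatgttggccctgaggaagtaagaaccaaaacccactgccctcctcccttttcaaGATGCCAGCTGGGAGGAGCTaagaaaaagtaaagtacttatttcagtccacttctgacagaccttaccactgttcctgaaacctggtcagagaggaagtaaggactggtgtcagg
The 2 promoters were identical at 208 of 266 aligned bases (78.2%). Neither holds the letters of an interferon-stimulated response element (GAAA, any 2 bases, GAAA), of a STAT site (TTCNNNGAA) or of an EBF1 site (TCCC, any 2 bases, GGGA) on either strand. Of 32851 promoters of this length, 3.44%, 8.3% and 0.904% hold these letters.

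The summed FPKM of 7 B cell markers was 3546 to 4671 in every library. Fcer2a, which encodes CD23 of the gate, was at 496 ± 45.1 FPKM in FO, 427 ± 44.1 in BDL and 29.6 ± 4.34 in MZ (SD, n = 3 here and throughout), and Cr2, which encodes CD21, at 141 ± 7.57, 107 ± 8.69 and 454 ± 52.7. The gates were CD93- by surface protein, whereas the Cd93 transcript differed, at 3.90 ± 1.2 FPKM in FO, 12.5 ± 2.96 in BDL and 1.41 ± 0.311 in MZ. Cd93 was called higher in BDL over FO (log2 fold change 1.67, limma adjusted p = 0.00715) and over MZ (3.06, adjusted p = 6.6e-05). The study's flow cytometry also found surface CD93 to be highest on BDL of these 3 subsets, and it describes BDL as CD93 intermediate. The table holds no counts. From the steps between low values, the depth of the libraries was estimated at 0.898 to 1.22 times that of FO replicate 1. The 3 libraries of the replicate 2 date stood apart in markers of other cells, with 5.455 to 6.703 FPKM summed over 7 neutrophil markers against 0.2552 to 1.068 in the other 6, and 3.989 to 4.82 against 0.8404 to 2.122 over 5 NK cell markers.

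The 6 genes covered a wide range of levels. Over the 9 libraries Ly6d averaged 816 FPKM and Ly6e 781, which ranked them 109 and 116 among all rows by mean FPKM. Ly6a followed at 249 FPKM (rank 241). Ly6c2 (7.22 FPKM), Ly6k (7.11) and Ly6c1 (2.42) were at ranks 6747, 6800 and 9441. By the depth estimate these levels stand for about 62 to 241 fragments per library for Ly6c1, 87 to 835 for Ly6c2 and 113 to 726 for Ly6k, against at least 7635 for Ly6a, Ly6d and Ly6e, so that counting error weighs most on Ly6c1. The 6 genes together made up 0.343% to 0.487% of the summed FPKM of a library.

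The comparisons were BDL over FO, BDL over MZ and MZ over FO, which share libraries. Genes are named as called where the limma p, adjusted by Benjamini-Hochberg over 11597 rows, was under 0.05 and the fold change on the log2(FPKM + 0.1) scale was 2 or more. All 6 genes passed the minimum of 0.5 FPKM, and each also averaged more than that over the other 6 libraries when any 1 subset was set aside. In BDL over FO, 2 of the 6 were called higher, Ly6c1 and Ly6c2, and 0 lower, where 1.64% of all rows tested were called higher and 0.267% lower (1.91% in all). Against MZ, Ly6c2 was called higher in BDL and Ly6a and Ly6k lower, where 3.47% and 4.34% of all rows were called (7.8% in all). Between MZ and FO, Ly6a and Ly6k were called higher in MZ and 0 of the 6 lower, where 5.54% and 3.39% of all rows were called (8.92% in all). Ly6d and Ly6e were called in none of the 3 comparisons. By the values alone, the libraries of BDL and FO did not overlap for 3 of the 6 genes, Ly6c1, Ly6c2 and Ly6d, all higher in BDL, as for 24.4% of all rows (10.3% were without overlap and lower). BDL and MZ did not overlap for Ly6c1 and Ly6c2, higher in BDL, and for Ly6a and Ly6k, lower, as for 22.6% and 16.4% of all rows. MZ and FO did not overlap for Ly6a, Ly6k, Ly6c1 and Ly6d, all higher in MZ, as for 23.6% of all rows (22.5% lower).

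**Figure D1:**
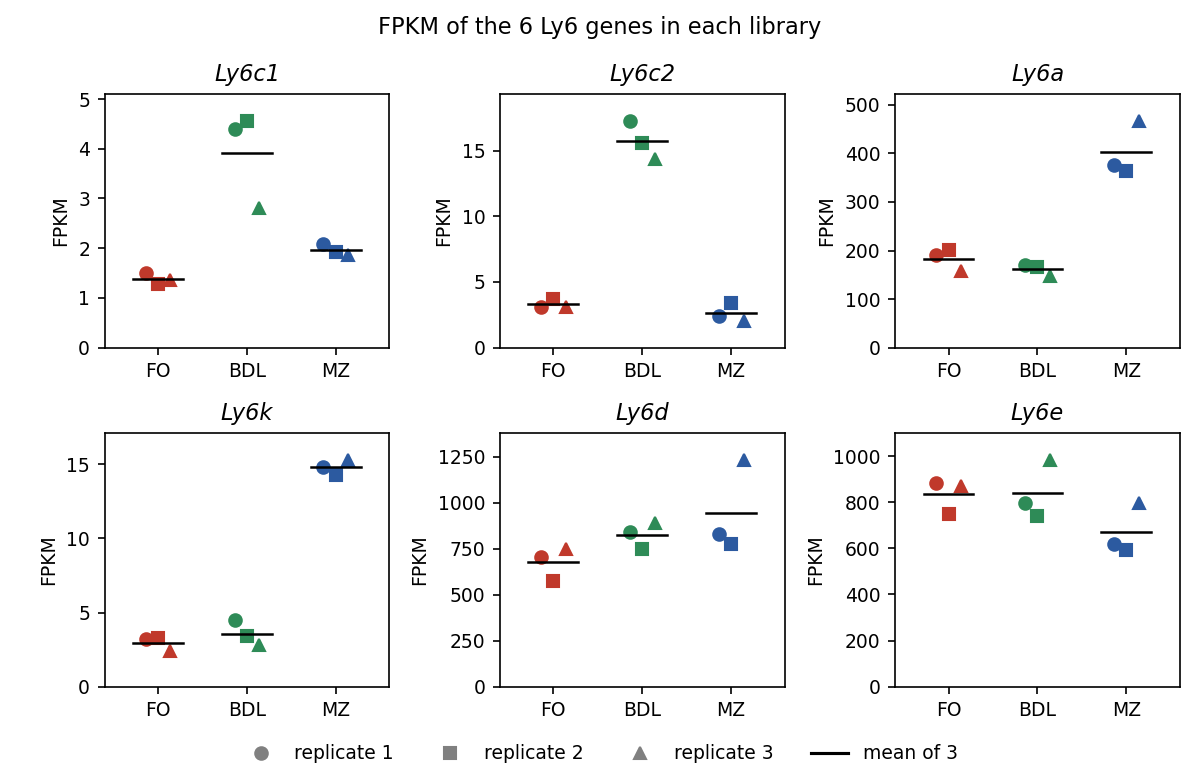
FPKM of each of the 6 genes (vertical axes, linear from 0, scaled per gene) in FO, BDL and MZ libraries (horizontal axes), with 1 point per library, the marker giving the replicate number and the line the mean of 3. Ly6c1 and Ly6c2 sit highest in BDL, Ly6a and Ly6k highest in MZ, and the Ly6e values of the 3 subsets overlap.

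Ly6c2 was the gene with the largest difference in BDL. It was at 3.11, 3.71 and 3.10 FPKM in FO replicates 1 to 3, at 17.3, 15.6 and 14.4 FPKM in BDL, and at 2.42, 3.37 and 2.04 FPKM in MZ. Every BDL library was above every other library, and FO and MZ overlapped. The means were 3.31 ± 0.352 in FO, 15.7 ± 1.45 in BDL and 2.61 ± 0.683 in MZ. In BDL over FO the log2 fold change was 2.22 (SE 0.17, 95% interval 1.82 to 2.62), a 4.65-fold higher level with an adjusted p of 3.92e-04 by limma. In BDL over MZ it was 2.57 (2.17 to 2.97), 5.95-fold, with an adjusted p of 2.53e-05 by limma. MZ over FO gave -0.35 (-0.75 to 0.04), which did not pass (limma adjusted p = 0.177).

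Ly6c1 was lower in level than Ly6c2 in every library. It was at 1.51, 1.29 and 1.36 FPKM in FO, at 4.39, 4.56 and 2.81 FPKM in BDL, and at 2.09, 1.92 and 1.86 FPKM in MZ. The 3 subsets did not overlap, with FO lowest and BDL highest, and BDL replicate 3 lay closest to MZ. The means were 1.39 ± 0.112, 3.92 ± 0.964 and 1.95 ± 0.118. Ly6c1 was 2.66-fold higher in BDL than in FO (log2 fold change 1.41, SE 0.18, 95% interval 1.0 to 1.82, limma adjusted p = 0.0036). Without the replicate 2 date, which leaves 2 libraries per subset, the log2 fold change was 1.24 and the call was lost (limma adjusted p = 0.118), while Ly6c2 kept its call at 2.31 (adjusted p = 0.010). Over MZ the difference of Ly6c1 was 0.94 (0.53 to 1.35), with a limma adjusted p of 0.00558 but a fold of 1.92, under the minimum of 2. It passed that minimum with quantile normalization and without BDL replicate 3. MZ over FO gave 0.47 (0.06 to 0.88) and did not pass (limma adjusted p = 0.0906), although it passed at 0.0246 with the 6 libraries of these subsets alone and at 0.00735 without BDL replicate 3.

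The sum of Ly6c1 and Ly6c2 depends less than either gene on how shared reads were divided between them. It would still change if such reads were dropped or counted for both genes. It was 4.61, 5.0 and 4.46 FPKM in FO, 21.7, 20.1 and 17.2 FPKM in BDL, and 4.51, 5.29 and 3.90 FPKM in MZ. BDL stood above both other subsets in every library, and FO and MZ overlapped. As 1 summed row in the limma fit, the log2 fold change was 2.04 in BDL over FO (4.11-fold, adjusted p = 1.36e-04) and 2.09 in BDL over MZ (4.25-fold, adjusted p = 1.62e-05). In MZ over FO it was -0.05 (95% interval -0.34 to 0.25, limma adjusted p = 0.829). The exact permutation p of the sum was 0.1 in BDL over FO and in BDL over MZ, the smallest that 3 libraries against 3 allow.

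The ratio of the paralogs, as the table divides them, also differed. Ly6c2 over Ly6c1 was 2.061, 2.883 and 2.277 in FO, 3.933, 3.409 and 5.114 in BDL, and 1.162, 1.752 and 1.1 in MZ. The subsets did not overlap, with MZ lowest and BDL highest, and each pair of subsets had a two-sided exact permutation p of 0.1. Because reads of the pair may have been divided by an estimate, whether this ratio follows the transcripts themselves was not tested.

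**Figure D2:**
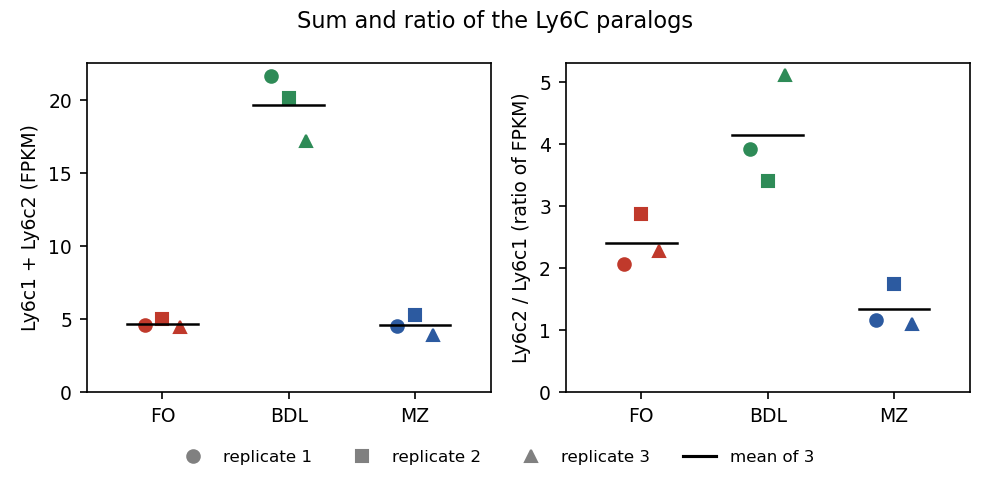
Left, summed FPKM of Ly6c1 and Ly6c2, and right, the ratio of Ly6c2 to Ly6c1 FPKM (vertical axes, linear from 0), by subset, with 1 point per library and lines at the mean of 3. The sum is 17.2 to 21.7 FPKM in BDL and 3.90 to 5.29 in the other subsets, and the ratio is lowest in MZ and highest in BDL.

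All values here are transcript levels. The study's flow cytometry did not bear out the raised surface Ly6C and F4/80 on BDL that its RNA-seq pointed to. Ly6C is also made by monocytes, plasma cells and T cells, so the markers of those cells are given beside it. Of 9 monocyte and macrophage markers the summed level was 7.685 to 11.32 FPKM in FO, 9.866 to 14.82 in BDL and 12.58 to 19.75 in MZ. Cd68 was the highest of them, at 5.34 ± 0.367, 4.55 ± 1.28 and 9.78 ± 1.85 FPKM. It made up most of the sum in FO and MZ but not in BDL. The monocyte receptor Ccr2 averaged 0.101, 0.143 and 0.165 FPKM and the growth factor receptor Csf1r 0.329, 0.387 and 0.509. Emr1 (F4/80), of the same list, followed the Ly6c2 pattern at 0.802 ± 0.141, 3.48 ± 0.379 and 0.687 ± 0.131 FPKM and was called higher in BDL over FO (log2 fold change 1.99, limma adjusted p = 8.22e-04) and over MZ (2.19, adjusted p = 6.9e-05). Of 10 T cell markers the sum was 10.4 to 12.15 FPKM in FO, 19.7 to 24.92 in BDL and 8.184 to 14.35 in MZ. Most of it was Lck, at 9.06 ± 0.576, 20.3 ± 2.28 and 9.04 ± 2.18 FPKM, while Cd3e averaged at most 0.198 FPKM in any subset. The sum of 6 plasma cell markers was 185.7 to 223.0 FPKM in FO, 128.5 to 206.7 in BDL and 224.4 to 296.1 in MZ, and was almost all Irf4 (179 ± 20.1, 137 ± 40.2 and 230 ± 36.2 FPKM), which other B cells express too. Another of them, Sdc1 (syndecan-1, CD138), was at 1.5 ± 0.244, 8.47 ± 1.43 and 0.177 ± 0.0971 FPKM and was called higher in BDL (log2 fold change over FO 2.42, limma adjusted p = 0.00147). The rest of that list did not follow Sdc1. Prdm1, at 0.527, 0.930 and 4.39 FPKM, was called lower in BDL than in MZ (-2.12, limma adjusted p = 0.00118) and not called in BDL over FO. Xbp1 and Igj were called in no comparison, and Tnfrsf17 was at 0 in every FO and BDL library. Of B1 cell markers the sum of 4 was 16.96 to 18.7 FPKM in BDL, 5.648 to 5.903 in FO and 6.869 to 8.157 in MZ. All 4 were called higher in BDL over FO. Over MZ, Spn (2.59, limma adjusted p = 1.13e-05) and Zbtb32 were called. Cd5 (0.16, adjusted p = 0.644) and Bhlhe41 (0.68, a fold under 2) were not. Both Zbtb32 calls were lost without the replicate 2 date (1.91 and 1.13, limma adjusted p = 0.144 and 0.159). The sum of 4 transitional B cell markers was 124.3 to 161.1 FPKM in BDL, 95.32 to 115.7 in FO and 19.93 to 25.17 in MZ. Most of the transitional sum was Vpreb3, at 104, 128 and 21.6 FPKM in FO, BDL and MZ. Vpreb3 was not called in BDL over FO (0.28, limma adjusted p = 0.264), and Rag1 and Rag2 were near 0 in every subset. The part of Emr1, Lck, Sdc1 and the B1 and transitional markers in the Ly6c1 and Ly6c2 difference was not tested. In sorted bulk samples, more cells with a transcript and more transcript per cell cannot be told apart.

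Ly6a (Sca-1) was highest in MZ. It was at 191, 200.4 and 157 FPKM in FO, at 171, 167 and 147 FPKM in BDL, and at 377, 363 and 467 FPKM in MZ. Every MZ library was above every FO and BDL library, and FO and BDL overlapped. The means were 183 ± 22.7, 161 ± 12.7 and 402 ± 56.7. BDL was 2.48-fold lower than MZ (log2 fold change -1.31, SE 0.14, 95% interval -1.63 to -0.99, limma adjusted p = 2.62e-04). MZ was 2.20-fold higher than FO (1.14, 0.82 to 1.46, limma adjusted p = 5.21e-04). BDL over FO gave -0.18 (-0.50 to 0.14) and did not pass (limma adjusted p = 0.470).

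Ly6k was also highest in MZ, at a far lower level. It was at 3.2, 3.27 and 2.41 FPKM in FO, at 4.49, 3.44 and 2.81 FPKM in BDL, and at 14.8, 14.3 and 15.3 FPKM in MZ. The MZ libraries were close together and well above the rest, and FO and BDL overlapped. The means were 2.96 ± 0.479, 3.58 ± 0.849 and 14.8 ± 0.525. MZ was 4.91-fold higher than FO (log2 fold change 2.29, SE 0.18, 95% interval 1.89 to 2.70, limma adjusted p = 3.81e-05), and BDL 4.12-fold lower than MZ (-2.04, -2.44 to -1.64, limma adjusted p = 8.20e-05). BDL over FO was 0.25 (-0.15 to 0.66, limma adjusted p = 0.412).

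Ly6d and Ly6e, the most abundant pair, differed by less than the fold of 2 in all 3 comparisons. Ly6d was at 704, 573 and 749.8 FPKM in FO, at 841, 750.4 and 890.0 FPKM in BDL, and at 827, 777 and 1234 FPKM in MZ. FO lay below both other subsets, its highest value next to the lowest of BDL, while BDL and MZ overlapped and MZ replicate 3 was the highest library. The means were 676 ± 91.7, 827 ± 70.8 and 946 ± 251. The log2 fold change was 0.30 (95% interval -0.15 to 0.75, limma adjusted p = 0.391) in BDL over FO and -0.17 (-0.62 to 0.29, adjusted p = 0.574) in BDL over MZ. In MZ over FO it was 0.46 (0.01 to 0.91, limma adjusted p = 0.123).

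Ly6e was at 883, 749 and 871 FPKM in FO, at 795, 739.5 and 984 FPKM in BDL, and at 619, 592 and 797 FPKM in MZ. All 3 subsets overlapped, with means of 834 ± 73.9, 839 ± 128 and 669 ± 111. The log2 fold change was 0.00 (95% interval -0.38 to 0.38, limma adjusted p = 1.0) in BDL over FO, 0.33 (-0.05 to 0.71, adjusted p = 0.176) in BDL over MZ and -0.33 (-0.70 to 0.05, adjusted p = 0.187) in MZ over FO. With the library date as a block, the limma adjusted p of Ly6d in MZ over FO was 0.0299, and those of Ly6e were 0.0444 in BDL over MZ and 0.0485 in MZ over FO, all with fold changes under 2 and so not called.

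**Figure D3:**
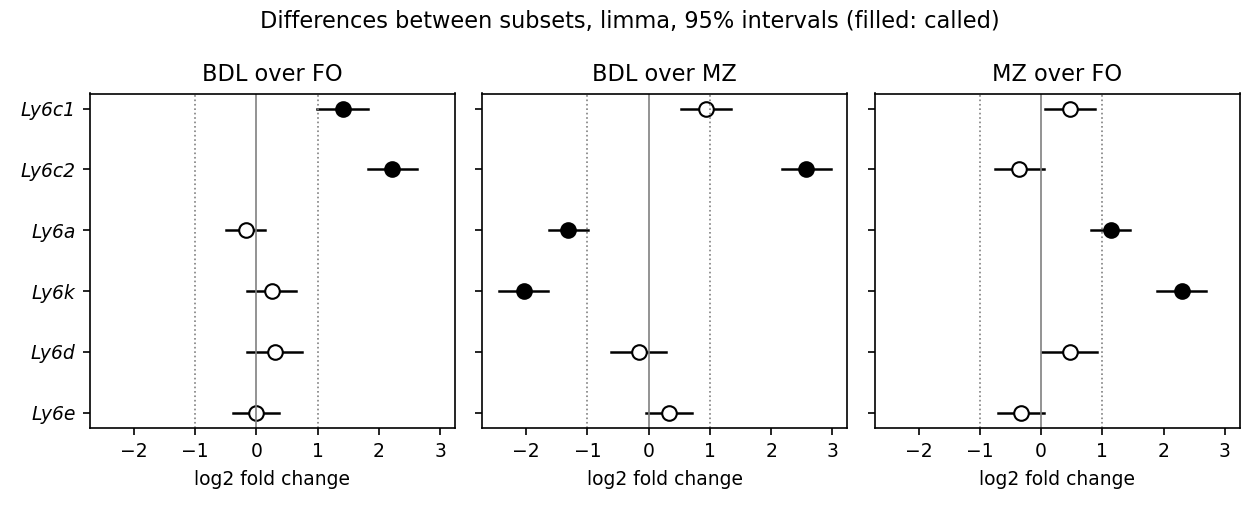
Log2 fold change (horizontal axes, log2(FPKM + 0.1) scale) of the 6 genes in the 3 comparisons, with 95% intervals from limma, filled points for called genes, a solid line at 0 and dotted lines at a fold change of 2 in either direction. Ly6c1 and Ly6c2 are called in BDL over FO, Ly6c2, Ly6a and Ly6k in BDL over MZ, and Ly6a and Ly6k in MZ over FO.

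Within libraries, the order of the most abundant genes changed between subsets. The ratio of Ly6d to Ly6e was 0.7646 to 0.8608 in FO, 0.9043 to 1.058 in BDL and 1.312 to 1.549 in MZ, so that Ly6e led in every FO library and Ly6d in every MZ library, and in BDL the order varied by library. The ratio of Ly6a to Ly6e was 0.1805 to 0.2674 in FO, 0.1493 to 0.2252 in BDL and 0.5867 to 0.6135 in MZ. Ly6d and Ly6e together made up 86.4% to 91.8% of the summed FPKM of the 6 genes in FO and BDL libraries and 78.2% to 80.7% in MZ libraries. Ly6a was below both in every library, and Ly6c1 was below Ly6c2 and Ly6k in all FO and MZ libraries and below Ly6c2 in all BDL libraries.

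The genes around the 6 were examined over the 883.4 kb from Psca to Gpihbp1, a window chosen after values had been seen. GENCODE M1 has 26 genes there, 21 of them in the table and 12 above the minimum of 0.5 FPKM. The 2 genes called in BDL over FO were Ly6c1 and Ly6c2, both higher, where 1.64% of all rows were called higher. In MZ over FO 6 genes were called higher and 0 lower, where 5.54% and 3.39% of all rows were called. Besides Ly6a and Ly6k these were Ly6i, Gml, Hemt1 and Lynx1. Gml and Hemt1 averaged under 0.5 FPKM outside MZ, so that they were tested only through the subset where they are high, and without them the count was 4 higher of 10. Gml, a GPI-anchored family member next to Ly6k, was at 0.361 ± 0.269 FPKM in FO, 0.174 ± 0.0559 in BDL and 4.27 ± 0.910 in MZ (MZ over FO log2 fold change 3.38, limma adjusted p = 3.37e-04). Hemt1, on the opposite strand beside Gml, was at 0.0889 ± 0.0596, 0.134 ± 0.0756 and 1.78 ± 0.168 FPKM (3.37, limma adjusted p = 1.84e-04). Lynx1, known as a modulator of nicotinic acetylcholine receptors, was at 15.7 ± 2.02, 26.7 ± 3.49 and 40.8 ± 12.6 FPKM (1.33, limma adjusted p = 0.00221). Ly6i, which shares 3.74% of its 50-base windows with Ly6a, was at 3.45 ± 1.11, 2.67 ± 0.833 and 7.51 ± 0.960 FPKM (1.14, limma adjusted p = 0.0213). Ly6a was far more abundant, with means of 183, 161 and 402 FPKM. Whether reads of Ly6a entered the Ly6i values was not tested. The Ly6i call in MZ over FO was lost with 1 in place of 0.1 added (0.96, a fold under 2), without FO replicate 2 or 3 and without MZ replicate 1 or 3 (log2 fold changes 0.88, 1.2, 1.18 and 1.04, limma adjusted p up to 0.0655), and without the replicate 2 date (0.94, adjusted p = 0.0984). In BDL over MZ, without Gml and Hemt1, 3 of 10 were called lower, Ly6i, Ly6a and Ly6k, and 1 higher, Ly6c2. Of all rows 4.34% were called lower and 3.47% higher. Gml and Hemt1, tested only through MZ, were called lower as well. Ly6i kept that call under all 20 alternatives.

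**Figure D4:**
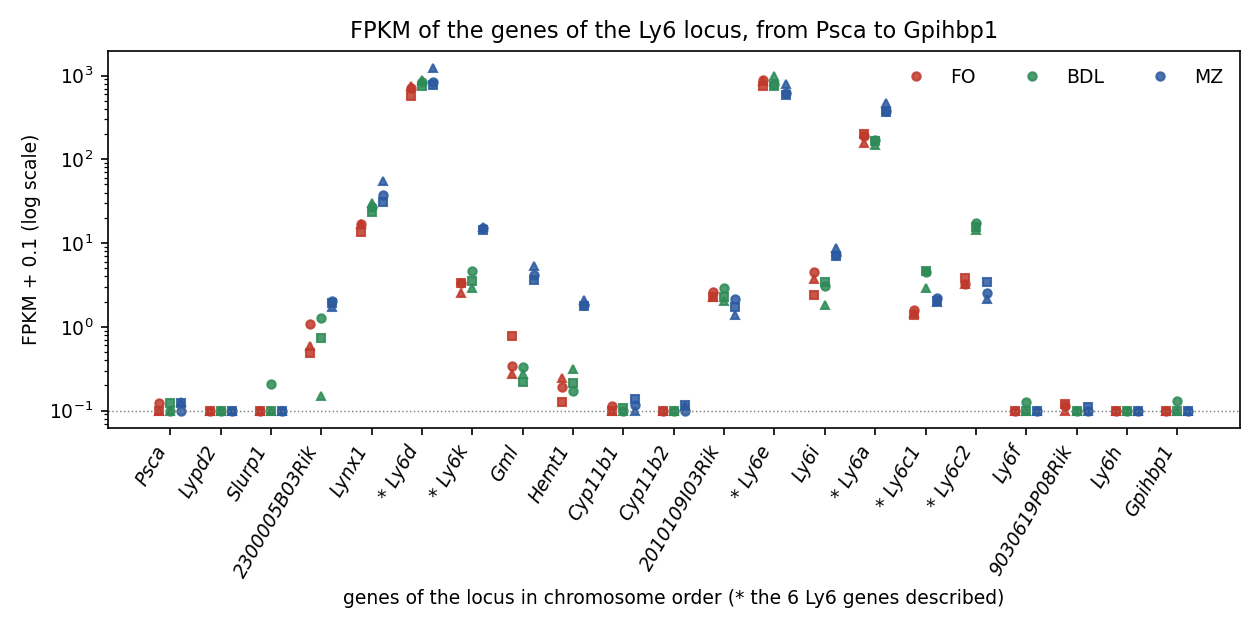
FPKM + 0.1 (vertical axis, log scale) of the 21 genes of the locus that are in the table, in chromosome order (horizontal axis, spacing not to scale), with 1 point per library coloured by subset, the 6 genes described marked by an asterisk, and a dotted line at an FPKM of 0. MZ points lie above FO and BDL at Ly6k, Gml, Hemt1, Ly6i and Ly6a, and BDL points lie highest at Ly6c1 and Ly6c2.

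Other members of the Ly6/uPAR family were mostly at or near 0. Of 35 listed, 32 were in the table and 8 passed the minimum, and 10 were at 0 in every library. Of the 8, Gml and Cd59a passed only through MZ and Ly6g5b only through FO, the subsets where each was highest, which leaves 5 for counts. In BDL over FO 0 of the 5 were called (median log2 fold change -0.36, against 0.05 over all rows, of which 1.91% were called). Over FO, 2 of the 5 were called higher in MZ and 0 lower (median 1.14, against -0.01, with 5.54% and 3.39% of all rows called). The 2 were Ly6i and Lynx1, and Gml and Cd59a were called as well. Cd59a, which encodes an inhibitor of the complement membrane attack complex, was at 0.14 ± 0.0467, 0.164 ± 0.101 and 2.90 ± 0.869 FPKM in FO, BDL and MZ (3.63, limma adjusted p = 1.10e-04). Between BDL and MZ 0 of the 5 were called higher in BDL and 2 lower (median -1.50, against 0.06, with 3.47% and 4.34% of all rows called). The 2 were Ly6i and Plaur, and Gml and Cd59a were called lower as well. Plaur, the urokinase receptor, was at 157 ± 43.5, 73.7 ± 27.8 and 256 ± 81.2 FPKM. Its difference in BDL over FO was -1.13 with a limma adjusted p of 0.0775, and 0.00708 with the library date as a block, which called it. The 3 others tested, 2010109I03Rik, 2300005B03Rik and Ly6g5b, were called in none of the comparisons. Ly6g5b was called lower in MZ over FO with quantile normalization (-1.02, limma adjusted p = 0.0419) and without FO replicate 2 (-1.14, adjusted p = 0.0250). 2300005B03Rik was called in BDL over MZ with the library date as a block (-1.85, limma adjusted p = 0.0438) and without BDL replicate 1 (-2.50, adjusted p = 0.0327), and in MZ over FO with the 6 libraries alone or without BDL replicate 3 (1.48, adjusted p = 0.0139 and 0.0122).

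Few genes that build and attach the GPI anchor were called. Of 28 listed, 26 were tested, and 0 were called in BDL over FO, 1 in BDL over MZ and 1 in MZ over FO, with median log2 fold changes of 0.08, 0.07 and 0.03. Of all rows 1.91%, 7.8% and 8.92% were called, so that few calls among 26 genes do not set the list apart. The gene called was Pgap1, which removes an acyl group from the anchor inositol early in the secretory pathway. It was at 20.9 ± 0.776 FPKM in FO, 19.6 ± 1.16 in BDL and 6.51 ± 0.452 in MZ (MZ over FO -1.67, limma adjusted p = 3.64e-06). The most abundant genes not called were Pigt, Dpm2 and Pigs, with subset means between 23.6 and 35.3 FPKM.

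Of 30 other GPI-anchored surface proteins of leukocytes, 13 were tested. Bst1 and Cd59a passed the minimum only through MZ and Folr4 only through BDL, which leaves 10 for counts. In BDL over FO 0 of the 10 were called (median -0.06, against 0.05 over all rows, of which 1.64% were called higher and 0.267% lower), and Folr4 and Bst1 were called higher. Folr4, folate receptor 4, known from regulatory T cells and, as Juno, from the egg surface, was at 0.225 ± 0.0330, 2.14 ± 0.251 and 0.453 ± 0.0496 FPKM in FO, BDL and MZ (2.78, limma adjusted p = 1.44e-04). Because Folr4 was tested only through BDL, the minimum itself favoured a high level there. Bst1 (CD157) was at 0.0782 ± 0.0131, 0.699 ± 0.0978 and 4.33 ± 0.830 FPKM (2.16, limma adjusted p = 6.67e-04). The Bst1 call was lost with 1 in place of 0.1 added, and Bst1 fell under the minimum with the 6 libraries of FO and BDL alone, as Folr4 did with a minimum of 1 FPKM. Between MZ and FO 1 of the 10 was called higher in MZ and 1 lower (median 0.20, against -0.01, with 5.54% and 3.39% of all rows called). Sema7a, a semaphorin, was called higher at 7.40 ± 0.879 in FO and 62.1 ± 10.0 in MZ, and Cd55, a brake on complement activation, lower at 297 ± 25.4 and 54.3 ± 5.19. Between BDL and MZ 1 of the 10, Cd55, was called higher in BDL and 2 lower, Sema7a and Plaur (median -0.01, against 0.06, with 3.47% and 4.34% of all rows called). Cd52, Cd24a and Cd48, the most abundant of the list that were not called in any comparison, had subset means of 86.8 to 1600.5 FPKM.

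Because several Ly6 genes respond to interferons, 40 interferon-stimulated genes were listed, of which 38 were tested. In BDL over FO 2 were called higher and 0 lower (median 0.16, against 0.05 over all rows, of which 1.64% and 0.267% were called). These were Rsad2 (1.28, limma adjusted p = 0.00264) and Gbp2 (1.33, adjusted p = 0.00436). The Gbp2 call was lost without the replicate 2 date (1.47, limma adjusted p = 0.0658), and the Rsad2 call with 1 added. Between MZ and FO 7 were called higher in MZ and 0 lower (median 0.25, against -0.01, with 5.54% and 3.39% of all rows called). These were Ifit1, Ifit3, Isg15, Rsad2, Ifih1, Gbp2 and Gbp3. Isg15, a ubiquitin-like protein, was at 5.99 ± 1.09, 5.96 ± 1.13 and 18.5 ± 3.99 FPKM in FO, BDL and MZ. Between BDL and MZ 0 were called higher in BDL and 2 lower, Ifit3 and Isg15 (median -0.17, against 0.06). Of all rows 3.47% and 4.34% were called, so that 2 lower of 38 is near that share. Isg15 was thus highest in MZ, like Ly6a, and at like levels in FO and BDL. Ifit3 was called in the same comparisons as Isg15 and Ly6a, with MZ higher. Ifit1, Ifih1 and Gbp3 were called only in MZ over FO. Rsad2 and Gbp2 were also called in BDL over FO, where Ly6a was not. The other listed genes that were tested were called in no comparison. Ly6e, also interferon-inducible, averaged 834, 839 and 669 FPKM in FO, BDL and MZ and was not called. The part of interferon in the Ly6 differences was not tested.

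The rows whose log2(FPKM + 0.1) followed each gene most closely over the 9 libraries were found among 10257 candidates, as a description. The 9 points share 3 subsets and 3 dates, so that rows with like subset means come first. Ly6c2 was followed by Nrgn (r = 0.9865), Rgs13 (0.9855) and Gh (0.9797), all highest in BDL. Rgs13, a regulator of G protein signalling known from germinal centre B cells, averaged 0.221, 4.64 and 0.150 FPKM in FO, BDL and MZ. Ly6c1 was followed by Slc12a4 (0.9926), Kremen1 (0.9827) and Zbtb32 (0.9748). Ly6a was followed by Elmod3 (0.9943), Alox5ap (0.9929) and Myc (0.9917), of which Myc, the growth-promoting transcription factor, averaged 126, 106 and 429.5 FPKM. Ly6k was followed by Rec8 (0.9951), Slc39a14 (0.9926) and Ppl (0.9923). Rec8, the meiotic cohesin subunit, averaged 0.288, 0.545 and 10.9 FPKM. Ly6d was followed by Gm5148 (0.9747), Atp2a2 (0.9729) and Zxdc (0.9724), and Ly6e by Dag1 (0.9872), Yif1a (0.9824) and Ncoa1 (0.98).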

How the data were processed

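Per the labels and the study's methods, cells were enriched by negative magnetic selection and sorted by flow cytometry, and the authors aligned reads to mm9 with TopHat2 2.1.0 and computed FPKM with Cufflinks. The Cufflinks version, the annotation and the handling of reads with several matches are not given in the sources used here. The deposited FPKM were used as they stand. Libraries of 1 date may share a pool of 5 mice, so that p-values measure the spread between 3 dates of sorting.

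The 11597 of 24459 rows that averaged 0.5 FPKM or more were tested as log2(FPKM + 0.1) with limma 3.58.1 in R 4.3.3 (eBayes with a trend, subset as the term), after the fit had been tested on simulated data. A fold change on this scale understates the change of low genes. Single values were compared by a two-sided exact permutation test (scipy 1.17.1), whose smallest p is 0.1. Depth was estimated from genes with 1 transcript of at least 3000 nt, where 70.1% to 80.0% of low values lay within 0.1 of a whole fragment. A step fixed in advance would give 20% by chance. The step was chosen for each library to fit these same values, so that 20% is not the chance level here. Fragment numbers are therefore approximate. Replicate numbers come from the dates in the sample titles, which pair the libraries. Correlations of same-date deviations from the subset means were 0.147, -0.0623 and 0.0491 between BDL and FO, 0.1, 0.182 and 0.244 between BDL and MZ, and 0.0238, 0.0077 and 0.0138 between MZ and FO. The study's methods give no date term, and the date was therefore left to an alternative fit, as a block.

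The members and gene lists were chosen with earlier results of these data known. The text names every member, the 3 rows most like each, list members that were called, up to 8 per list and comparison, and up to 3 abundant ones that were not. Marker genes and the locus genes were picked after their values were seen. Promoters came from RefSeq on GRCm38.p6 and matched 2 of the 6 symbols. The authors' Cuffdiff results were not used here.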

Additional observations from a re-analysis of the deposited data

How the results depend on the processing

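Each result was recomputed with another constant added (0.01 or 1), with no minimum or one of 1 FPKM, in the 6 libraries compared, with the library date as a replicate block, with quantile normalization or scaling to the upper quartile, with robust eBayes or no trend, with rows of 1 symbol summed, and leaving out each library. The calls of Ly6a and Ly6k against MZ, and those of Ly6c1 in BDL over FO and Ly6c2 in both BDL comparisons, held under all 20. Leaving out the replicate 2 date was added after seeing the data and left 1 of the 6 genes called in BDL over FO. In BDL over MZ 2 of the 6 were called higher with quantile normalization, without BDL replicate 3, or by adjusted p alone. The replicate block changed no call of the 6 genes, and among the other genes of the lists and locus named in the text it added those of Plaur in BDL over FO and 2300005B03Rik in BDL over MZ.

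In BDL over FO 221 rows were called, 190 higher and 31 lower. With 1 added these were 94, 78 and 16, without the replicate 2 date 91, 75 and 16, and by adjusted p alone 896, 701 and 195. With the replicate block 49 were lower, and leaving out 1 library gave 15 to 31 lower. Against MZ 905 rows were called (402 higher, 503 lower). With 1 added 267 were higher, and by adjusted p alone 3255 were called, 1909 higher and 1346 lower. For MZ over FO 1035 were called (642 higher, 393 lower). With 1 added these were 674 with 406 higher, and by adjusted p alone 3141, 1658 and 1483. Leaving out 1 library moved the members called higher in BDL over MZ between 1 and 2.

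As the log2 ratio of mean FPKM, Ly6c1 plus Ly6c2 differed by 2.07 in BDL over FO and 2.11 in BDL over MZ, and as 1 summed row in limma by 2.04 and 2.09. Without 1 library MZ over FO ranged from -0.16 to 0.062, and was 0.062 without MZ replicate 3 and 0.0085 without FO replicate 2 against -0.040 with all. The depth limits Ly6c1 most, with as few as 62 fragments.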
